A study of Mus musculus with 28 samples.

Results

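The comparison described here set the duodenum of mice with either of 2 mutations of the vitamin D receptor gene against the duodenum of wild-type mice, and so measured the mean effect of the mutations. Its members were 14 of the 28 libraries of the series, all 14 duodenal ones. They were 6 libraries of Vdr+/+ mice (WT), 4 of Vdr-/- mice (KO, knockout in the labels and "vdr-/- demay" in the table's header) and 4 of Vdr AF2 mice (AF2, delta AF2 in the labels). The mean of KO and AF2, each with a weight of 0.5, was set against WT, so that neither mutant counted for more than the other. All mice were female and 8 weeks old and ate TD.96348, a rescue diet rich in calcium, phosphate and lactose, so the controls carried that diet too. What each mutation removes from the gene is not given in the labels, nor whether the whole duodenal wall was taken or only its mucosa. The labels also leave out whether libraries of a group came from separate mice, and p-values then measure only the spread between these libraries.

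The vitamin D receptor is a nuclear receptor that, once bound by 1,25-dihydroxyvitamin D, pairs with a retinoid X receptor and binds DNA near its target genes. Activation function 2 is the part of the receptor that binds coactivators when hormone is present, so a receptor without it may still occupy DNA. In the duodenum the hormone is best known for inducing calcium uptake by enterocytes, through the apical channel Trpv6, the cytosolic calcium carrier S100g (calbindin-D9k) and the basolateral pump Atp2b1. Enterocytes arise from stem cells in the crypts, which also hold the antimicrobial Paneth cells, and mature as they move up the villus.

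Library totals were 3713352 to 6519522 deposited counts in 13 libraries and 25181916 in WT 2. After a filter on low counts 13302 genes were tested. Markers of the tissue were present: the summed level of 11 duodenal and enterocyte genes was 4885 to 7632 CPM (normalised counts, scaled to the size of the library) in WT, 4913 to 6494 in KO and 5449 to 6392 in AF2. Of 6 genes in the list labelled ileal identity only Slc10a2 (1.31 to 5.34 CPM in WT) and Ccl25 passed the filter. Ccl25 measured 677 to 980 CPM in the WT duodenum, so it does not mark ileum here. WT 4 stood apart from the other WT libraries, with the lowest WT sum of brush border genes, 18185 CPM against 26032 to 38667 CPM in the other WT libraries and 17488 to 24067 CPM in the mutants. It also had the highest sum of Brunner gland and stomach genes (49763 CPM, against 20327 to 41146 CPM elsewhere). WT 6 lay at the opposite end of the leading axis of variation. The library codes fell into 3 runs of consecutive numbers, with WT 1 and 2 in the first, WT 3 and 4 with all KO libraries in the second, and WT 5 and 6 with all AF2 libraries in the third. The labels do not say what a run is.

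Between both mutants and WT 15 of 13302 genes passed the test (0.113%), 13 lower in the mutants (0.0977%) and 2 higher (0.015%). The genes that fell included Vdr itself, the calcium channel gene Trpv6, the glucose transporter gene Slc5a1, the interferon-inducible genes Gbp7 and Ifih1, the immunoproteasome gene Psmb9, and Aldh4a1, Gch1, Upp1, Cisd1, Plekha8 and Snx25. Those that rose were the mitotic gene Ube2c and the ribosomal protein gene Rps20. Changes were moderate apart from Trpv6 and Vdr: the other 13 lay between -0.92 and 0.75 on the log2 scale. Vdr had an adjusted p of 0.00244. Trpv6, Gbp7, Plekha8, Ube2c, Gch1, Upp1, Slc5a1 and Aldh4a1 shared an adjusted p of 0.0462, and the other 6 shared 0.0476, so 14 of the calls lay close to the threshold. The nearest genes outside it, named after their values were seen, were Sis and Klf6, both at 0.053 (0.00236 and 0.00406 by DESeq2), and 13 genes had adjusted p-values from 0.05 to 0.10. Without adjustment 1650 genes (12.4%) had a p under 0.05, 1017 lower (7.65%) and 633 higher (4.76%). When 1 library was left out in turn, Vdr passed in 14 of 14 fits, and the number of genes called was 356 without WT 4, 15 without AF2 2, 11 without KO 2, 2 without WT 3, WT 6, KO 3 or KO 4, and 1 without any other library. Scored as 1 mixed group of 8 libraries, the mutants gave 0 calls by edgeR (1568 at an unadjusted p under 0.05), whereas DESeq2 with the main weights called 180 genes (2.98% of the 6050 for which it gave an adjusted p), 136 lower (2.25%) and 44 higher (0.727%). Limma-voom called 3 genes, all lower (0.0226%), and with quality weights 29 (0.218%), 21 lower (0.158%) and 8 higher (0.0601%). In what follows, "called" without a tool means by edgeR, and the members of a list that DESeq2 called are given beside it. DESeq2 gave an adjusted p to only part of many lists, and its calls cover that part alone. It did so for 16 of 34 interferon response genes, 8 of 17 stem cell genes and 11 of 17 Paneth cell genes. Among enteroendocrine genes it covered 9 of 16, and among ribosomal protein genes 43 of 76. With the run of library codes as a term only Vdr was called (0.00752%).

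**Figure D1:**
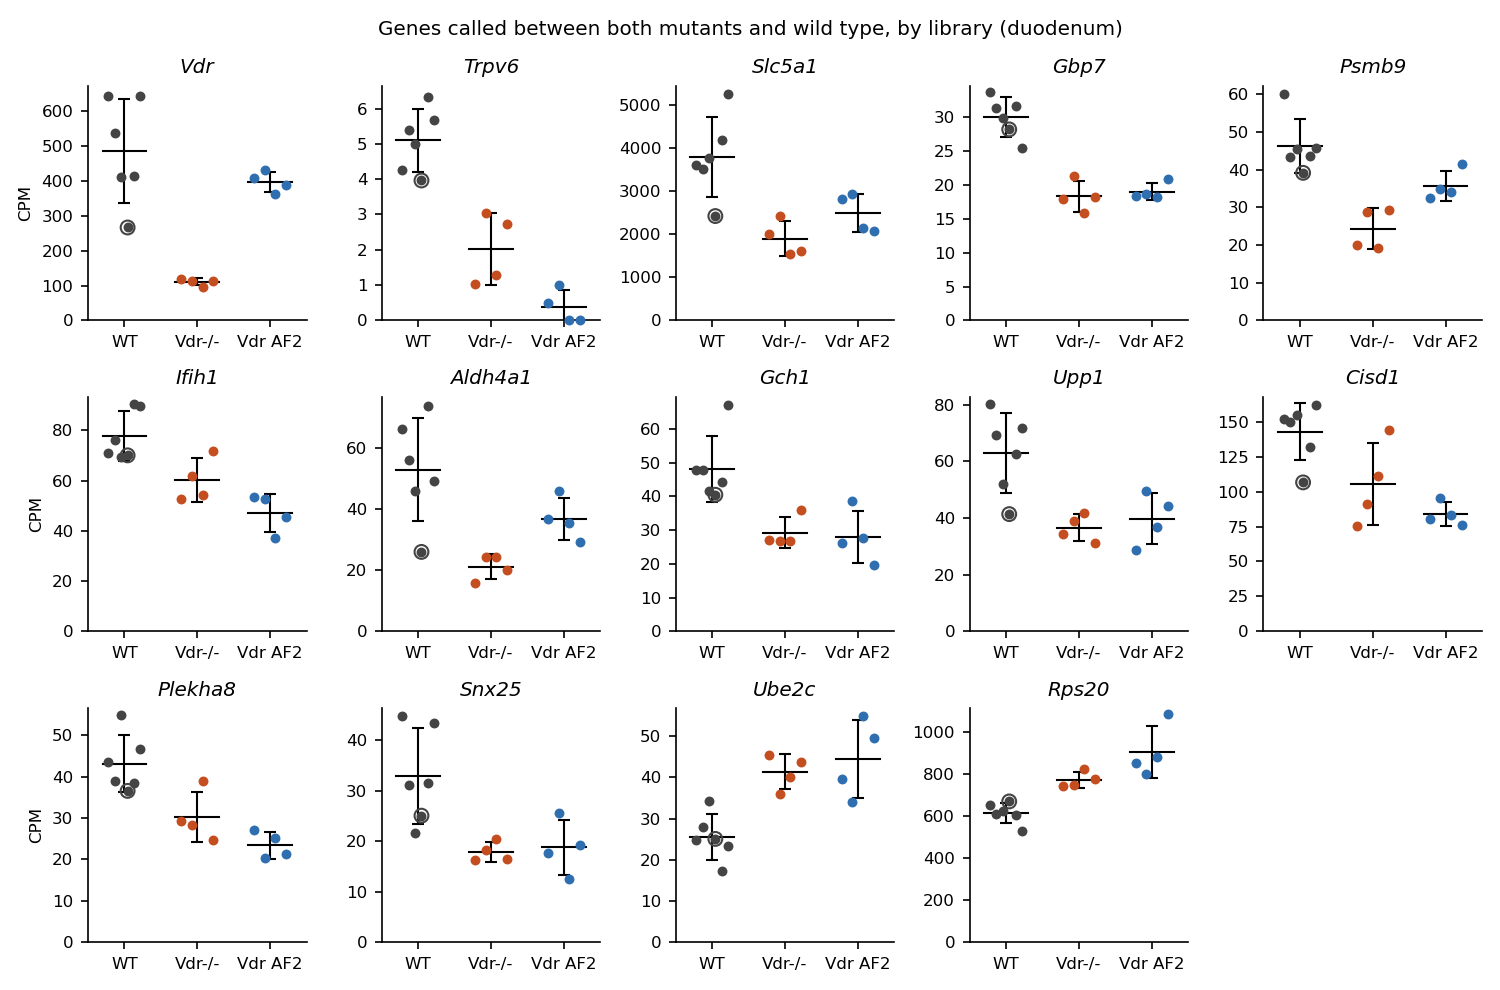
Normalised level (CPM, vertical axes from 0) of 14 of the called genes in each duodenal library, with the mean (line) and SD (bars) of 6 WT, 4 KO and 4 AF2 libraries; the ring marks WT 4. The 8 mutant libraries lie wholly below the WT libraries for Trpv6, Gbp7 and Gch1 and wholly above them for Rps20.

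Few of the calls rested on groups that did not overlap. Over all genes tested, the 8 mutant libraries lay wholly outside the range of the 6 WT libraries for 33 genes (0.248%), 17 lower and 16 higher. Among the called genes this held for 5 of 15, among them Trpv6, Gbp7 and Gch1 below WT and Rps20 above it. KO against WT alone called 3 genes (0.0226%) and AF2 against WT alone 9 (0.0677%); these comparisons share the WT libraries. Of the 15 genes, 3 were also called by the KO contrast (Vdr, Aldh4a1 and Psmb9), 5 by the AF2 contrast (Trpv6, Plekha8, Cisd1, Rps20 and Ifih1) and 7 by neither. Unadjusted p-values under 0.05 were reached by 15 of 15 in KO and by 14 of 15 in AF2, where Vdr was the exception.

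Vdr (chromosome 15, 97854425 to 97910630, minus strand, mm10) measured 267, 476 and 646 CPM in WT at its lowest, median and highest. It measured 120.2, 114, 97.3 and 112 CPM in KO 1 to 4, and 408, 432, 362 and 388 CPM in AF2 1 to 4. Every KO library lay below every WT library, whereas the AF2 libraries lay inside the WT range. The pooled change of -1.21 ± 0.15 (SE) was therefore the mean of unlike parts, -2.14 ± 0.20 in KO and -0.29 ± 0.18 in AF2, and the difference between the mutants was 1.84 ± 0.21 (adjusted p 0.000492). Vdr was the only called gene with an adjusted p under 0.05 between the mutants. At an unadjusted p under 0.05 the mutants differed for 5 of the 15 called genes. The libraries count 3' ends of transcripts only. Where the Vdr reads of KO lie in the gene, and why they remain, was not tested.

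Trpv6 (chromosome 6, 41620624 to 41636405, minus strand), the calcium channel of the enterocyte's apical membrane, had the largest change of the called genes. It measured 3.96, 5.19 and 6.32 CPM in WT at its lowest, median and highest, 1.02, 3.04, 1.28 and 2.74 CPM in KO 1 to 4, and 0.494, 1.01, 0 and 0 CPM in AF2 1 to 4. These levels rest on 127 reads in WT, 17 in KO and 4 in AF2. All 8 mutant libraries lay below all WT libraries. The AF2 libraries lay below the KO libraries, but AF2 2 at 1.01 CPM and KO 1 at 1.02 CPM were nearly equal. The pooled log2 fold change was -2.45 ± 0.45 (SE), with -1.33 ± 0.52 in KO and -3.56 ± 0.64 in AF2. The difference between the mutants, -2.23 ± 0.71, had a p of 0.00395 and an adjusted p of 0.235.

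Promoters of Trpv6 and S100g are shown because both genes belong to the calcium uptake route and only Trpv6 was called. Each window runs from 250 bases before the start of the RefSeq transcript to 50 bases after it (build GRCm38.p6, minus strand, chr6:41636356-41636655 for Trpv6 and chrX:162964550-162964849 for S100g). Capitals mark the nuclear receptor hexamer AGGTCA or its reverse complement.
Trpv6: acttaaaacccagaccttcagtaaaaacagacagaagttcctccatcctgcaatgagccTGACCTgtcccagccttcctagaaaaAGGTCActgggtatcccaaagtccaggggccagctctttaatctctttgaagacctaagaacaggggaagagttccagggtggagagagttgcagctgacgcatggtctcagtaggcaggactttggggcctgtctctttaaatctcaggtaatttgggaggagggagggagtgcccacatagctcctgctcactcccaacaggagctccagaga
S100g: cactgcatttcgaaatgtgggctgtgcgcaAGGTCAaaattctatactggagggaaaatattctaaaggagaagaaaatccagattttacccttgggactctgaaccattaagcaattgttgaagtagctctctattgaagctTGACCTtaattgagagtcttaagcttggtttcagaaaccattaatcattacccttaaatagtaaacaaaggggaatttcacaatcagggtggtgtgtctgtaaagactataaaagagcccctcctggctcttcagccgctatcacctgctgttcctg
Both windows held the hexamer on each strand, at 165 and 191 bases before the start in Trpv6 and at 220 and 107 bases before it in S100g. AGGTCA occurred on either strand in 16.3% of 32851 RefSeq windows of the same length, and in those of 3 of the 13 called genes that have a window (Trpv6, Plekha8 and Upp1). Its direct repeat with a spacer of 3 bases, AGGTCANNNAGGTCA, which contains the hexamer, occurred in 0.00609% of windows and in that of no called gene, and the same was true of GGTTCANNNGGTTCA. A match is a stretch of letters and no evidence of binding, and its absence concerns these windows only.

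The other genes of the calcium route did not pass. S100g measured 908, 1831 and 2381 CPM in WT at its lowest, median and highest. In KO 1 to 4 it measured 670, 1236, 1671 and 3161 CPM, and in AF2 1 to 4 it measured 1006, 1195, 437 and 617 CPM. KO libraries spanned the WT range and beyond, while the AF2 libraries lay at or below its lower part. The pooled log2 fold change was -0.54 ± 0.37 (SE, adjusted p 0.59), made of -0.02 in KO and -1.07 in AF2. Atp2b1, the basolateral calcium pump, had a log2 fold change of -0.26 ± 0.12 (adjusted p 0.363), and Slc8a1, a sodium-calcium exchanger, 0.21 ± 0.23 (0.778). Among claudins, which form the paracellular seal and its pores, Cldn2 had 0.30 ± 0.12 (0.293), Cldn12 -0.08 ± 0.13 (0.853) and Cldn15 -0.10 ± 0.10 (0.731).

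Slc37a2, a sugar-phosphate exchanger of the endoplasmic reticulum, came nearest to the threshold among the panel genes that missed it. Its level was 46.4, 73.8 and 116.3 CPM in WT at its lowest, median and highest, 35.3, 36.0, 52.9 and 35.6 CPM in KO 1 to 4, and 69.2, 38.9, 45.4 and 42.6 CPM in AF2 1 to 4. Mutant libraries overlapped WT through KO 3, AF2 1 and the low WT 6, and the log2 fold change was -0.83 ± 0.17 (adjusted p 0.0752 by edgeR and 0.00226 by DESeq2). The manganese exporter gene Slc30a10 differed by -0.03 ± 0.16 (0.965), with a sign that changed with the scaling and the libraries used. Cyp3a11, a drug- and steroid-metabolising enzyme, differed by -0.71 ± 0.45 (0.566), and Slc20a1, a phosphate transporter, by -0.34 ± 0.32 (0.723). Cyp24a1, whose product breaks down the hormone, had 0 reads in all 14 libraries, which allows up to 0.123 CPM in WT, 0.355 CPM in KO and 0.322 CPM in AF2 at 3 reads per group. Slc34a2, a sodium-phosphate cotransporter, had 0, 1 and 2 reads in WT, KO and AF2. Over the list of 17 tested genes of intestinal calcium transport and receptor targets, 1 was called lower (Trpv6) and 0 higher (4 and 1 at an unadjusted p under 0.05), 13 had a lower and 4 a higher mean, and the median was -0.10 beside -0.00 for all genes. DESeq2 gave Trpv6 no adjusted p and called 2 others of the list, Slc37a2 and the sulfotransferase gene Sult2b1, lower. Of 14 receptor partners and coregulators edgeR called 0, also at an unadjusted p under 0.05, and DESeq2 and limma-voom 0. All 8 phosphate transport genes had a lower mean (median -0.36). EdgeR called 0 of them (3 at an unadjusted p under 0.05), DESeq2 2 (Slc37a2 and Alpi) and limma-voom 0 without and 1 with quality weights.

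Genes of the absorptive surface had lower means in the mutants, with 1 of them, Slc5a1, past the test. Slc5a1 (chromosome 5, 33104219 to 33162870), the sodium-glucose cotransporter SGLT1, measured 2418, 3683 and 5245 CPM in WT at its lowest, median and highest, 2002, 2427, 1542 and 1618 CPM in KO 1 to 4, and 2803, 2939, 2147 and 2070 CPM in AF2 1 to 4. Every mutant library lay below the WT median, and all WT libraries but WT 4 lay above all mutants. The pooled log2 fold change was -0.80 ± 0.15 (SE), with -0.997 ± 0.18 in KO and -0.61 ± 0.18 in AF2. Sis, the sucrase-isomaltase that digests disaccharides, was the first gene outside the threshold, at -0.50 ± 0.11 (adjusted p 0.053), with 2653, 3772 and 3997 CPM in WT at its lowest, median and highest, 2022 to 2797 CPM in KO and 2186 to 3201 CPM in AF2. Of the 22 tested genes for digestion and sugar uptake at the brush border, 1 was called, 21 had a lower mean and the median was -0.41. The alkaline phosphatase gene Alpi (3894 and 2649 CPM in WT and mutants) did not pass by edgeR (adjusted p 0.167). DESeq2 called 3 of the list lower, Slc5a1, Sis and Alpi (the last at 0.0167).

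The same direction of means was seen in other lists of enterocyte function, of which edgeR and limma-voom called 0 members and DESeq2 6. Means were lower for 12 of 13 genes of peptide and amino acid uptake (median -0.25), 16 of 17 of microvillus structure (-0.21), 21 of 25 of lipid absorption and lipoprotein assembly (-0.24), 21 of 24 of cholesterol synthesis (-0.37) and 7 of 7 of bile acid sensing and transport (-0.21). Over all genes 6693 of 13302 (50.3%) had a lower pooled mean, and 32.7% had lower means in both mutants. In these lists 10, 11, 20, 18 and 3 members had lower means in both mutants, in the order above. The bile acid median was -0.49 in KO and -0.14 in AF2. At an unadjusted p under 0.05 edgeR had 5, 5, 7, 10 and 1 lower members in these lists, in that order. DESeq2 gave an adjusted p to 11, 17, 23, 15 and 4 members of these lists. It called 1, 1, 3, 1 and 0 of them, all lower: the 5 examples that follow and Acsl5, which activates fatty acids. Examples by smallest p in edgeR were Slc43a2, an amino acid transporter (-0.43, adjusted p 0.143), Eps8, an actin-capping protein of microvilli (-0.55, 0.138), Dgat2 of triglyceride synthesis (-0.55, 0.117), Abcg5 of sterol efflux (-0.43, 0.138) and Hsd17b7 of cholesterol synthesis (-0.59, 0.143). Their DESeq2 adjusted p-values were 0.0367, 0.0204, 0.0167, 0.0402 and 0.0367. The drug-metabolism list was less one-sided, with 18 of 27 lower means and a median of -0.11, and the highest-ranked member, Cyp4f14, stood at -0.82 (adjusted p 0.26). In whole tissue, fewer enterocytes and less RNA per enterocyte cannot be told apart.

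**Figure D2:**
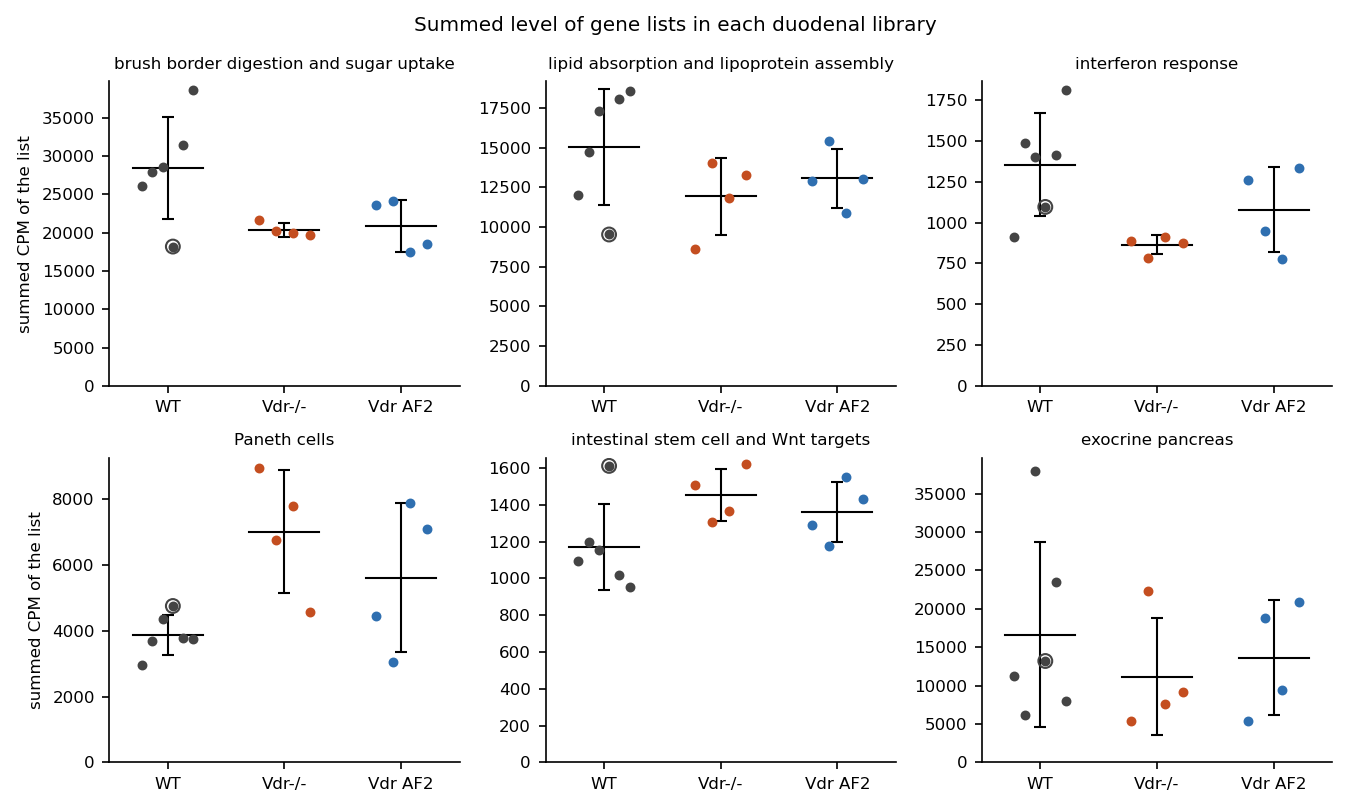
Summed CPM (vertical axes from 0) of 6 gene lists in each duodenal library, with the mean (line) and SD (bars) per genotype and WT 4 ringed. The brush border sum is 17488 to 24067 CPM in the 8 mutant libraries and 26032 to 38667 CPM in all WT libraries but WT 4, at 18185 CPM, while the Paneth and stem cell sums of WT 4 are the highest of WT.

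WT 4 bore on these values directly. Its brush border sum of 18185 CPM lay within the mutants' range, and its sum of 17 stem cell and Wnt target genes (1611 CPM) was above the other WT libraries (952 to 1195 CPM). Without it, 356 of 13156 genes were called (2.71%), 266 lower (2.02%) and 90 higher (0.684%), and all 15 genes kept their calls. The brush border list then had 6 of 21 members called lower, among them Slc5a1, Sis and Alpi. Lipid absorption had 6 of 25, microvillus structure 4 of 17 and peptide uptake 2 of 13, while cholesterol synthesis still had 0 of 24. WT 4 stood apart by these same genes, so the counts without it are no separate evidence, and its part in the 15-gene result was not tested further.

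**Figure D3:**
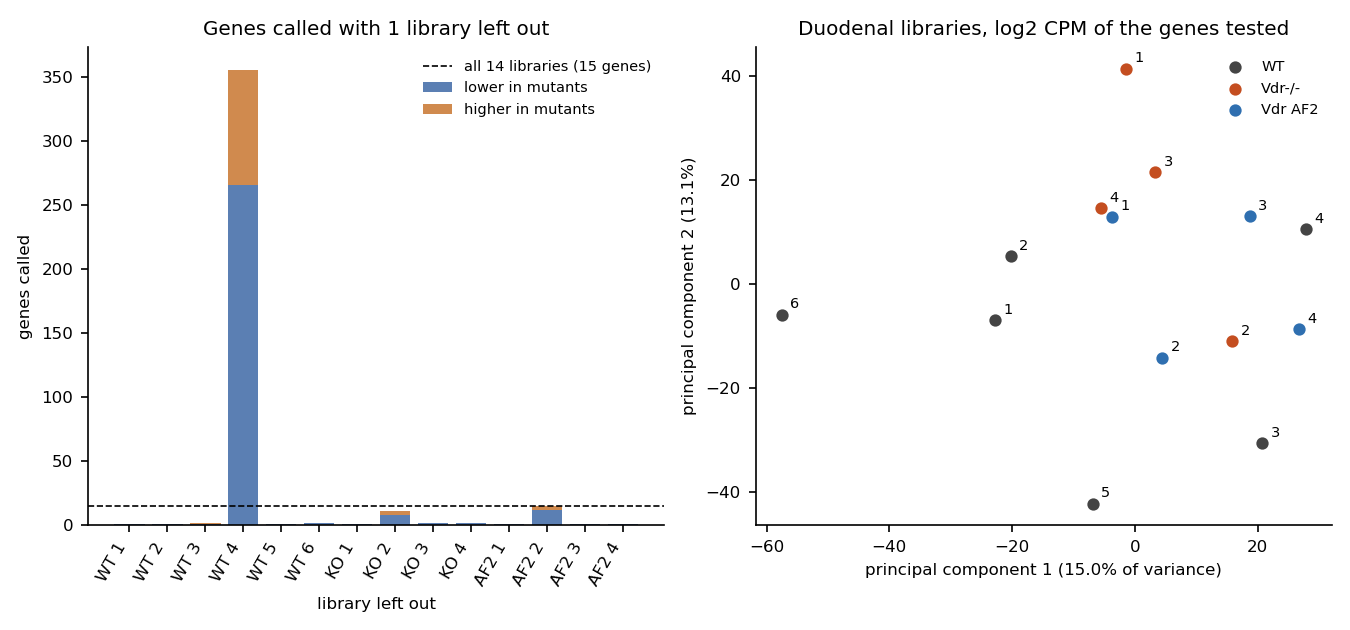
Left, genes called (stacked bars, lower and higher in the mutants) when the named library was left out, with a dashed line at the 15 genes of all 14 libraries; right, the libraries on the first and second principal components of log2 CPM. Only without WT 4 does the count pass the dashed line, at 356, and WT 4 and WT 6 lie at opposite ends of the first component.

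Among genes of interferon response and antigen processing 3 fell, and most others had lower means. Gbp7 (chromosome 3, 142530342 to 142550149), a guanylate-binding protein of cell-autonomous defence, measured 25.4, 30.6 and 33.7 CPM in WT at its lowest, median and highest. In KO 1 to 4 it measured 17.9, 21.3, 15.8 and 18.3 CPM, and in AF2 1 to 4 it measured 18.3, 18.6, 18.2 and 20.8 CPM. The groups did not overlap. The pooled change was -0.69 ± 0.13 (SE), with -0.72 ± 0.16 in KO, -0.66 ± 0.16 in AF2 and a difference of 0.05 ± 0.18 between the mutants.

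Ifih1 (chromosome 2, 62595798 to 62646255), the RNA sensor MDA5, measured 69.2, 73.6 and 90.6 CPM in WT at its lowest, median and highest. It measured 52.7, 61.8, 54.2 and 71.7 CPM in KO 1 to 4 and 53.4, 52.7, 37.2 and 45.6 CPM in AF2 1 to 4. Only KO 4 reached into the WT range. Its pooled change was -0.54 ± 0.11, with -0.37 ± 0.14 in KO and -0.72 ± 0.14 in AF2.

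Psmb9 (chromosome 17, 34181987 to 34187764), a catalytic subunit of the immunoproteasome, measured 39.2, 44.6 and 60.2 CPM in WT at its lowest, median and highest, 19.96, 28.9, 19.2 and 29.2 CPM in KO 1 to 4, and 32.6, 34.8, 34.2 and 41.6 CPM in AF2 1 to 4. All KO libraries lay below WT and AF2, and AF2 4 overlapped the lowest WT library, WT 4. The pooled change was -0.65 ± 0.13, with -0.93 ± 0.17 in KO and -0.37 ± 0.16 in AF2.

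The windows of Gbp7 (chr3:142530086-142530385, plus strand) and Ifih1 (chr2:62646206-62646505, minus strand) are shown because they were the called genes whose windows held the interferon-stimulated response core GAAANNGAAA. Capitals mark that motif and the gamma-activated site TTCNNNGAA, on either strand.
Gbp7: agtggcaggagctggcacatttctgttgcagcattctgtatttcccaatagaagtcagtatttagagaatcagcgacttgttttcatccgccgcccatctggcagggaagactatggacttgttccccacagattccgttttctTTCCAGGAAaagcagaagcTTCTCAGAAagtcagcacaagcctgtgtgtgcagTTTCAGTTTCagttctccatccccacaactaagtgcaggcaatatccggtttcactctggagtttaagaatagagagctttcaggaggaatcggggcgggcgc
Ifih1: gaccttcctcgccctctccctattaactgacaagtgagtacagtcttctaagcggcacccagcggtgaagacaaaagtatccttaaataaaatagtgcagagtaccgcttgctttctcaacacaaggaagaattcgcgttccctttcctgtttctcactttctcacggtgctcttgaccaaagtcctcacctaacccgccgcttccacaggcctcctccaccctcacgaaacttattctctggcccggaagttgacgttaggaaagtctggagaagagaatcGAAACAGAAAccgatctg
GAAANNGAAA occurred in 3.44% of the 32851 windows and TTCNNNGAA in 8.3%. In Gbp7 the first ended 53 bases before the start on the minus strand, with the second at 106 and 87 bases before the start. In Ifih1 the first lay after the start. TTCNNNGAA was also found in the windows of Plekha8, Snx25 and Trpv6, and Psmb9 held neither motif in its window.

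Of 34 tested interferon response genes, 2 were called lower and 0 higher, 31 had a lower mean, and the median was -0.45. In both mutants alike the mean was lower for 31 of the 34, against 32.7% of all genes (32.3% had higher means in both). The immunoproteasome and MHC class I list had 1 of 17 called and 15 lower means (median -0.27). Of these genes 12 had lower means in both mutants (median -0.38 in KO and -0.11 in AF2). DESeq2 called 3 interferon genes lower (Gbp7, Ifih1 and Oasl1) and 2 of the MHC class I list (Psmb9 and the interferon-induced factor gene Irf1). Of 15 genes of MHC class II and mucosal defence 10 had a lower mean (median -0.28), and edgeR, DESeq2 and limma-voom called 0 (2 at an unadjusted p under 0.05 in edgeR). Markers of T and NK cells had lower means for 10 of 11 (median -0.24). EdgeR called 0 of them (2 at an unadjusted p under 0.05) and limma-voom 0, while DESeq2 gave an adjusted p to only 1 and did not call it. Sums of these markers were 41.4 to 106.9 CPM in WT, 55.0 to 91.7 CPM in KO and 37.7 to 82.5 CPM in AF2. Their part in the interferon values was not tested. Summed interferon genes were 911 to 1812 CPM in WT, 782 to 913 CPM in KO and 777 to 1334 CPM in AF2, so that all KO libraries but KO 3 lay below WT and AF2 overlapped it. Without WT 4, 4 of 33 interferon genes and 5 of 17 of MHC class I were called lower, beside 2.02% of all genes. WT 4 had the lowest WT sum of the MHC class I list (4737 CPM), so that count is no separate evidence.

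**Figure D4:**
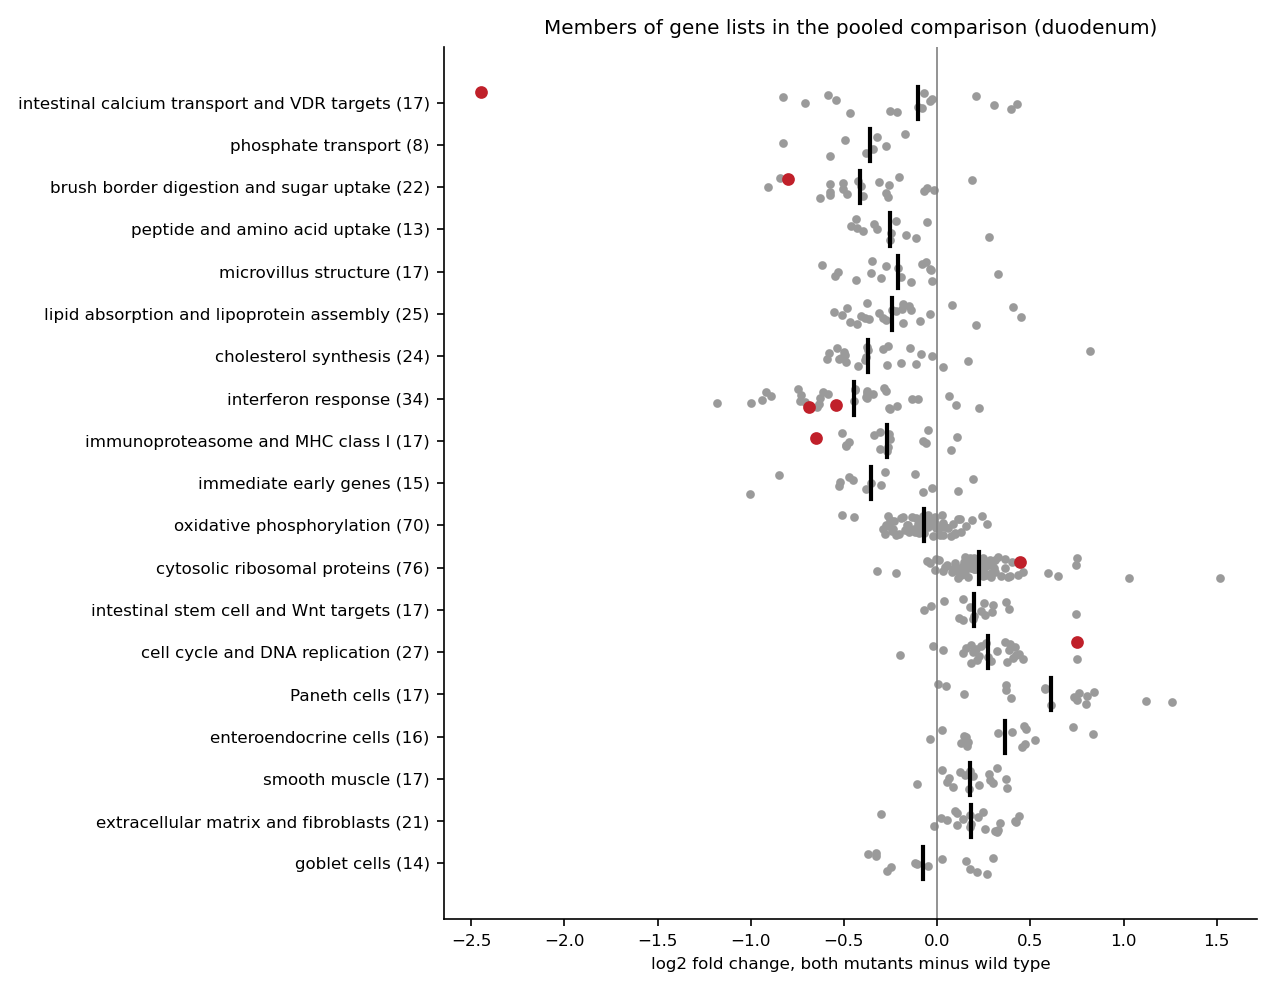
Pooled log2 fold change (horizontal axis) of each tested member of 19 gene lists (vertical axis, number of members in brackets); points are genes, red points passed the test and black bars are list medians. Lists of enterocyte function and interferon response have medians left of 0 (brush border -0.41, interferon -0.45), and Paneth cell, cell cycle, stem cell and ribosomal lists have medians right of 0 (Paneth cells 0.61), with at most 2 members called by edgeR in any list.

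The other genes that fell serve varied roles. Aldh4a1 (chromosome 4, 139622866 to 139649690), a mitochondrial dehydrogenase of proline breakdown, measured 25.98, 52.6 and 73.7 CPM in WT at its lowest, median and highest, 15.9, 24.3, 24.3 and 20.1 CPM in KO 1 to 4, and 36.6, 46.0, 35.5 and 29.2 CPM in AF2 1 to 4. All KO libraries lay below WT, whereas AF2 overlapped WT through WT 3 and WT 4. The pooled change was -0.92 ± 0.18, with -1.32 ± 0.22 in KO and -0.52 ± 0.21 in AF2, and the difference between mutants of 0.80 ± 0.24 had an adjusted p of 0.216. It was the called member of 14 genes of proline and amino acid breakdown, of which 9 had a lower mean (median -0.04), and DESeq2 also called Got1 lower.

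Gch1 (chromosome 14, 47153895 to 47189413), the first enzyme of tetrahydrobiopterin synthesis, measured 40.5, 46.0 and 67.1 CPM in WT at its lowest, median and highest. In KO 1 to 4 it measured 27.1, 26.9, 26.9 and 36.1 CPM, and in AF2 1 to 4 it measured 26.2, 38.5, 27.7 and 19.8 CPM. Groups did not overlap, and the pooled change was -0.75 ± 0.15.

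Upp1 (chromosome 11, 9118103 to 9136170), a uridine phosphorylase, fell by 0.72 on the log2 scale (SE 0.14), from 41.4, 66.0 and 80.1 CPM in WT at its lowest, median and highest to 31.0 to 41.8 CPM in KO and 28.7 to 49.7 CPM in AF2. Cisd1 (chromosome 10, 71330480 to 71344954), the iron-sulphur protein mitoNEET of the outer mitochondrial membrane, fell by 0.60 (SE 0.12), from 106.6, 151 and 162 CPM to 75.2 to 143.8 CPM in KO and 75.8 to 95.6 CPM in AF2. For Upp1 the overlap with WT ran through WT 4 alone. For Cisd1 the AF2 libraries lay below WT and KO overlapped it. Plekha8 (chromosome 6, 54595111 to 54645839), a carrier of glycosphingolipid precursors, fell by 0.69 (SE 0.13), from 36.6, 41.2 and 54.8 CPM to 24.7 to 38.8 CPM in KO and 20.3 to 27.2 CPM in AF2. Snx25 (chromosome 8, 46033261 to 46152159), a sorting nexin, fell by 0.85 (SE 0.17), from 21.6, 31.4 and 44.8 CPM to 16.4 to 20.5 CPM in KO and 12.5 to 25.7 CPM in AF2. For Plekha8 only KO 3 reached into the WT range, and for Snx25 only AF2 2.

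The genes that rose belong to cell division and to the ribosome. Ube2c (chromosome 2, 164769898 to 164778822), which attaches ubiquitin for the anaphase-promoting complex in mitosis, measured 17.4, 24.98 and 34.3 CPM in WT at its lowest, median and highest. It measured 45.5, 36.0, 40.1 and 43.8 CPM in KO 1 to 4, and 39.6, 34.1, 55.0 and 49.5 CPM in AF2 1 to 4. AF2 2 overlapped WT 3 and no other pair of libraries crossed. The pooled log2 fold change was 0.75 ± 0.15 (SE), with 0.70 ± 0.17 in KO and 0.80 ± 0.17 in AF2. Its promoter window (chr2:164769679-164769978, plus strand) is shown with the cell-cycle genes homology region TTTGAA, on either strand, in capitals.
Ube2c: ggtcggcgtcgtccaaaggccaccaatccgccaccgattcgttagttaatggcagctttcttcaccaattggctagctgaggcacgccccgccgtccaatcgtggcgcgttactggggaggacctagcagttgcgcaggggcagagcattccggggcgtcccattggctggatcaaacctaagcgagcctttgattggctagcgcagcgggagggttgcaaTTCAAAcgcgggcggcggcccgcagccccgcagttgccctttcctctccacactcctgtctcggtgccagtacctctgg
The motif lay 29 bases before the start. TTTGAA occurred in 17.9% of windows and in those of 4 of the 13 called genes, the others being Plekha8, Slc5a1 and Trpv6, which fell.

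Rps20 (chromosome 4, 3831334 to 3835665), a protein of the small ribosomal subunit, measured 531, 617 and 669 CPM in WT at its lowest, median and highest. It measured 744, 745, 825 and 778 CPM in KO 1 to 4, and 853, 801, 880 and 1085 CPM in AF2 1 to 4. All mutant libraries lay above all WT libraries, and the pooled change was 0.44 ± 0.09, with 0.33 ± 0.11 in KO and 0.56 ± 0.11 in AF2. Ribosomal protein genes have many near-identical pseudogenes, and how the authors counted reads shared between copies is not given in the sources used here, so this value is uncertain.

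Crypt lists lay on the side of Ube2c. Of 27 genes of the cell cycle and DNA replication 1 was called higher and 25 had a higher mean (median 0.27). Of 17 stem cell and Wnt target genes 15 had a higher mean (median 0.20), with 0 called by edgeR (4 at an unadjusted p under 0.05), DESeq2 or limma-voom. DESeq2 gave an adjusted p to 8 of the 17. Ephb3, a receptor that positions crypt cells, stood at 0.74 (adjusted p 0.145 by edgeR) and the stem cell marker Olfm4 at 0.38 (0.246). All 17 tested Paneth cell genes had a higher mean, with a median of 0.61, the largest median of any list. EdgeR called 0 of them (8 at an unadjusted p under 0.05) and limma-voom 0, whereas DESeq2 called 4 higher, the defensin genes Defa30 (adjusted p 0.0265), Defa24 and Defa17 and the lysozyme gene Lyz1. In edgeR Defa21 (4.10 and 10.7 CPM in WT and mutants, adjusted p 0.13) and Defa30 (729 and 1282 CPM, 0.192) led the list, and defensins share near-identical sequence, so single members are uncertain. Summed Paneth genes were 2973 to 4752 CPM in WT, 4563 to 8950 CPM in KO and 3040 to 7878 CPM in AF2, so AF2 ran from the low end of WT to above it and KO overlapped WT through KO 4.

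Ribosomal protein genes had a higher mean for 70 of 76 (median 0.22, 1 called by edgeR and 3 by DESeq2), beside 6609 of 13302 genes in all. Enteroendocrine genes had a higher mean for 15 of 16 (median 0.36). EdgeR called 0 of them (8 at an unadjusted p under 0.05) and limma-voom 0. DESeq2 called 3 higher of the 9 to which it gave an adjusted p, beside 0.727% of all such genes. The 3 were the hormone genes Ghrl (0.52, adjusted p 0.136 by edgeR and 0.0278 by DESeq2) and Cck (0.46, 0.145 and 0.0465) and the granin gene Chgb. Goblet cell genes were divided, 8 lower and 6 higher (median -0.08), and so were Brunner gland and stomach genes, 5 and 5. Heat shock genes had a higher mean for 11 of 13 (median 0.17), and for 6 of 13 in both mutants (median 0.21 in KO and 0.04 in AF2). The chaperone Hsp90ab1 came near the threshold (0.46 ± 0.10, adjusted p 0.057 by edgeR and 0.00201 by DESeq2). Without WT 4, 3 of 17 stem cell genes and 3 of 27 cell cycle genes were called higher. So were 3 of 76 ribosomal genes and 1 of 17 Paneth genes, beside 0.684% of all genes. WT 4 had the highest WT sum of each of these lists, so the counts without it are no separate evidence.

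Because few higher genes were called, the highest-ranked others without overlap of the groups are given as values. Snrpd3, a core protein of spliceosomal particles, measured 170 ± 13.2 CPM (SD, n = 6) in WT, 223 ± 25.5 CPM (SD, n = 4) in KO and 221 ± 23.5 CPM (SD, n = 4) in AF2 (log2 fold change 0.39, adjusted p 0.117). Ivns1abp, an actin-binding kelch protein, had 0.37 (0.121), Pigt of GPI anchor attachment 0.39 (0.127) and Nav1 0.60 (0.127). By that choice each was higher in 8 of 8 mutant libraries than in any WT library and missed the adjusted threshold in edgeR. Over all genes 16 of 13302 (0.12%) lay wholly above WT. DESeq2 called Snrpd3, Ivns1abp and Pigt (adjusted p 0.00572, 0.00635 and 0.0192) and gave Nav1 no adjusted p.

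Smooth muscle genes had a higher mean for 16 of 17 (median 0.18), and their median was -0.09 in KO and 0.50 in AF2. Extracellular matrix and fibroblast genes had a higher mean for 19 of 21 (median 0.18, with 0.18 in KO and 0.30 in AF2), with Dcn at 0.42 (adjusted p 0.166). Pancreatic enzyme genes, which can come from pancreas left on the tissue, had a lower mean for 24 of 24 (median -0.50), yet their sum was 37931 CPM in WT 3 and 5388 to 23494 CPM elsewhere. Leaving out WT 3 turned their median to 0.32, and leaving out KO 2 made it -1.41. Immediate early genes, which respond within minutes to handling and stimuli, had a lower mean for 13 of 15 (median -0.36). Among them Atf3 stood at 12.8 CPM in WT and 6.42 CPM in the mutants (adjusted p 0.127). EdgeR, DESeq2 and limma-voom called 0 members of the smooth muscle, matrix, pancreatic and immediate early lists. In that order, 5, 7, 1 and 6 members had an unadjusted p under 0.05 in edgeR. DESeq2 gave an adjusted p to 17, 14, 21 and 8 of them. Oxidative phosphorylation genes had a lower mean for 52 of 70 (median -0.07), and for 35 in both mutants (median -0.14 in KO and -0.002 in AF2). EdgeR and limma-voom called 0 of them and DESeq2 1, Uqcrfs1, lower. Klf6, a zinc finger factor that is also inducible, was the gene beside Sis at the edge of the edgeR threshold (-0.54 ± 0.11, adjusted p 0.053). The part of these lists in the 15 calls was not tested.

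**Figure D5:**
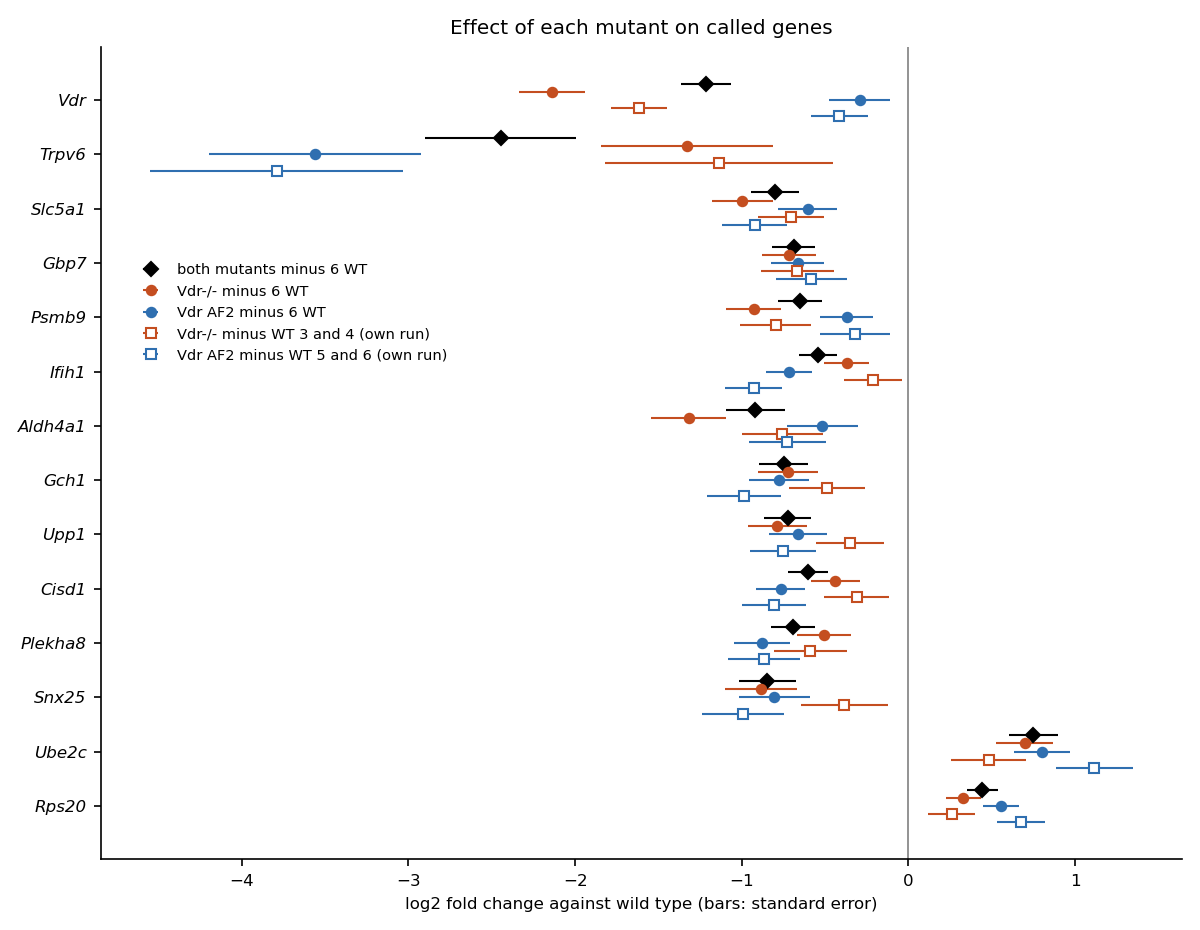
log2 fold change (horizontal axis, bars are SE) of 14 of the called genes for both mutants, for KO and AF2 against all 6 WT libraries, and for KO and AF2 against the WT libraries of their own run of library codes. All markers of the 12 lower genes shown lie left of 0 and all markers of Ube2c and Rps20 right of it, with Vdr furthest in KO and Trpv6 furthest in AF2.

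Each mutant could also be set against its own WT pair, KO against WT 3 and 4 and AF2 against WT 5 and 6, so that these effects shared no library. Both effects lay on the pooled side for 15 of 15 called genes. Over all genes both were lower for 24.5% and both higher for 26.5%; the calls used these libraries, so the agreement in sign is a description. Within runs Trpv6 stood at -1.14 ± 0.68 in KO and -3.79 ± 0.76 in AF2, Slc5a1 at -0.70 ± 0.20 and -0.92 ± 0.19, and Gbp7 at -0.67 ± 0.22 and -0.58 ± 0.22. Ube2c stood at 0.48 ± 0.23 and 1.12 ± 0.23, and Ifih1 at -0.21 ± 0.17 and -0.93 ± 0.17. With the run as a term, Vdr was called (adjusted p 5.20e-05) and the other 14 had adjusted p-values up to 0.139, Slc5a1 the lowest of them at 0.0569.

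Across all 13302 genes the within-run effects of KO and AF2 had a Pearson r of 4.54e-05, across genes, which are not independent replicates. List medians also differed between the runs. The brush border median was -0.07 for KO within its run and -0.65 for AF2 within its own, the cholesterol synthesis median 0.02 and -0.71, and the MHC class II median 0.19 and -0.46. The interferon median was -0.41 and -0.61, the cell cycle median 0.18 and 0.50, and the Paneth median 0.61 and 0.31. WT 4 is 1 of the pair of WT libraries behind the KO values. WT 6, of the pair behind the AF2 values, had the highest sums of all 14 libraries for brush border, cholesterol synthesis and MHC class II genes (38667, 3009 and 19370 CPM). The brush border sums of the mutants had medians of 20076 CPM in KO and 21038 CPM in AF2. The parts of WT 4 and WT 6 in the unlike medians of KO and AF2 were not tested. Ribosomal (0.08 and 0.42) and stem cell (0.07 and 0.49) medians were above 0 in both runs.

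The duodenal effect was tested against the same contrast in kidney cortex (6 WT, 4 KO and 4 AF2 libraries) in 1 fit of all 28 libraries; whether the tissues came from the same mice is not stated. The pooled effect differed between the tissues for 47 of 14944 genes (0.315%), and in kidney alone 204 passed (1.37%). Of the 15 called genes this held for Vdr and Aldh4a1. Aldh4a1 had a log2 change of -0.95 ± 0.16 in duodenum and 0.34 ± 0.15 in kidney, a difference of -1.29 ± 0.22 (adjusted p 0.0041), and Vdr -1.25 ± 0.16 and -2.42 ± 0.17, a difference of 1.17 ± 0.24 (0.0201). For the other 13 genes, such as Gbp7 (-0.38 ± 0.26, adjusted p 0.669), a difference was not detected.

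Panel genes that missed the duodenal threshold differed between the tissues as well. S100g stood at -0.58 ± 0.31 in duodenum and -3.52 ± 0.33 in kidney, where WT and mutant means were 926 and 83.9 CPM (difference 2.94 ± 0.45, adjusted p 0.00351). Slc37a2 stood at -0.86 ± 0.16 in duodenum and 0.70 ± 0.31 in kidney (difference -1.55 ± 0.35, 0.0281), and Cldn2 at 0.28 ± 0.12 and -0.51 ± 0.11 (difference 0.79 ± 0.16, 0.0189). Trpv6 was near its detection limit in kidney, with means of 0.552 (WT) and 0.272 (mutants) CPM, and its difference between tissues (-1.41 ± 0.97) had an adjusted p of 0.676.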

How the data were processed

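RNA of 28 mouse samples was measured, 14 of duodenum and 14 of kidney cortex. Per the labels' protocols, RNA was extracted from tissue with TRIzol and made into QuantSeq libraries, in which only the 3' end of a transcript is read. The authors deposited raw counts per gene symbol, 1 table per tissue, with sex, age and diet per the file headers. The submitters' processing notes name mm10 and limma 3.34.9, without a role for limma. Aligner, counter, strand and the treatment of shared reads are not given in the labels or headers. The deposited counts held 0 odd values, so reads are quoted as counts over 2, but models were fitted to the undivided counts.

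Group was taken from the sample titles. Within groups no pair of libraries matched to within counting error (smallest chi-square per degree of freedom 5.00) and 0 were identical. In edgeR 4.0.16 (R 4.3.3), genotype was fitted over the 14 duodenal libraries by robust quasi-likelihood, after filterByExpr by group and TMM scaling. The contrast gave KO and AF2 a weight of 0.5 each against WT and was tested two-sided. A gene was called at an adjusted p (Benjamini-Hochberg) under 0.05 over the 13302 genes. Of those called, 1 is counted in totals but not reported here. Adjusted p-values come from edgeR where no tool is named. The tissue difference was an interaction over 14944 genes. SE was derived from the F statistic (|log2 fold change| divided by its root). CPM use TMM-adjusted library sizes. Lists (40) are described by counts and medians, with no set test. The scripts were tested on simulated data.

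The members and gene lists were chosen with earlier results of these data known. The rule for named genes took Vdr, a mineral panel, up to 12 called genes each way, up to 6 others each way without overlap where fewer were called, up to 3 called members of each list (otherwise 2 of smallest p) and 3 genes each way for the tissue difference. Alternatives were other scalings, DESeq2 1.42.0, limma-voom 3.58.1, other filters, blocks and each library left out. Of 31179 symbols 30294 (97.2%) matched GENCODE vM21 on GRCm38 (mm10), which gave coordinates. A floor of 3 reads covers counting error only, since reads carry no molecular identifiers.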

Additional observations from a re-analysis of the deposited data

Results flagged for a closer look

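Libraries far from the rest of their group were looked for in 24 genes and 72 groups of libraries, and 7 were found, where chance gives about 5% of groups. Of the called genes, Gbp7 was 20.8 CPM in AF2 4 against 18.2 to 18.6 CPM in the other AF2 libraries. Gch1 stood out at 67.1 CPM in WT 6 against 40.5 to 47.8 CPM, and at 36.1 CPM in KO 4 against 26.9 to 27.1 CPM. Psmb9 was 60.2 CPM in WT 1 against 39.2 to 45.7 CPM. In the mineral panel, Cldn2 was 215.9 CPM in KO 4 against 163.7 to 165.1 CPM, Slc37a2 52.9 CPM in KO 3 against 35.3 to 36.0 CPM, and Slc30a10 160.5 CPM in AF2 4 against 271.9 to 282.5 CPM. KO 4 accounted for 2 of the 7.

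Some pooled effects differed between groups. Vdr differed between the mutants by 1.84 (adjusted p 0.000492), so its pooled value is a mean of unlike effects. Between duodenum and kidney the pooled effect differed for Vdr by 1.17, Aldh4a1 by -1.29, S100g by 2.94, Cldn2 by 0.79 and Slc37a2 by -1.55 on the log2 scale. The mutant effect (log2 fold change against WT) was higher in duodenum than in kidney for the ETS factors Etv4 (5.14, adjusted p 0.0204) and Etv1 (3.95, 4.02e-05) and the BMP antagonist Chrdl1 (3.11, 0.00874), and lower for the methyltransferase Eef1akmt3 (-3.34, 0.000172) and Pgm5 (-1.52, 0.00651). In duodenum Etv1 was 5.38 CPM in WT and 6.18 CPM in the mutants, against 21.0 and 1.59 CPM in kidney. Etv4 did not pass the filter of the duodenal fit, with 29, 17 and 18 duodenal reads in WT, KO and AF2. Eef1akmt3 was also low there, with 103, 43 and 18 reads.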

How the results depend on the processing

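The 15 genes kept their direction under the alternatives run, except under the filter of at least 20 counts in 6 libraries, where 14 of them were tested. The number called was 15 with RLE scaling, 14 with counts divided by 2, 5 with upper-quartile scaling (3 higher and 2 lower, against 2 and 13, with the median of all genes at 0.05), 3 with limma-voom, 29 with its quality weights, 180 with DESeq2 (14 of the 15 kept; Trpv6 had no adjusted p there), 345 with no expression filter and 1 with at least 20 counts in 6 libraries. It was 0 with KO and AF2 as 1 group and 0 when both mutants had to pass (1568 and 374 genes at an unadjusted p under 0.05), 1 with the run of library codes as a block and 1 to 356 with 1 library left out. Chosen after seeing the data, leaving out WT 4 and WT 6 gave 115, DESeq2 without WT 4 gave 792 and limma-voom without WT 4 gave 369. Replicate numbers are shared between genotypes. Correlations of deviations ran from -0.199 to 0.102 in 12 same-numbered pairs and from -0.153 to 0.216 in 52 others. What a shared number stands for cannot be settled by these correlations. With the replicate block 1 gene was called (Vdr). The tissue difference gave 43 genes with RLE scaling and 42 with the replicate block. Slc30a10, not called, changed sign to 0.0255 with upper-quartile scaling, 0.0851 with the replicate block and 0.00998 with the run block, and ran from -0.129 without KO 4 to 0.0531 without AF2 4 (above 0 also without WT 2, 5 or 6, or KO 1 or 2). Cldn12 moved to 0.00211 with the replicate block and 0.00311 without WT 4 and WT 6. The cause of these changes was not tested. The library totals limit low genes such as Trpv6 most.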

Other observations

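Some further values belong to no comparison above. In duodenum the receptor-partner list had 10 higher and 4 lower means (median 0.05). Circadian clock genes had lower means for 13 of 19 (median -0.27; edgeR, DESeq2 and limma-voom called 0, and 4 had an unadjusted p under 0.05 in edgeR), and Dbp measured 58.6 CPM in WT, 15.7 CPM in KO and 55.1 CPM in AF2 (adjusted p 0.265). Reg3g, an antimicrobial lectin of the mucosal defence list, had means of 992 CPM in WT, 251 CPM in KO and 472 CPM in AF2 (adjusted p 0.367). The WT mean rested on WT 1 (2387 CPM) and WT 6 (2232 CPM). The other WT libraries, at 157 to 668 CPM, overlapped the mutants, at 199 to 871 CPM.

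Among the lists not described above, medians were -0.18 for iron, zinc and manganese transport, 0.09 for tuft cells, 0.36 for enteric neurons and glia, -0.06 for endothelium, 0.10 for B and plasma cells, -0.01 for macrophages and other myeloid cells, 0.50 for red blood cells, -0.17 for adipocytes, -0.02 for endoplasmic reticulum stress, -0.19 for duodenal identity and -0.35 for ileal identity. The red blood cell median rested on 4 genes and was 0.05 without AF2 4. The ileal median rested on 2 genes, Slc10a2 and Ccl25, and Ccl25 does not mark ileum here. EdgeR (0 to 3 members a list at an unadjusted p under 0.05) and limma-voom called 0 members of these lists, and DESeq2 called Heph (0.0426) of the first and Dnajb9 (0.0167) of endoplasmic reticulum stress, both lower. DESeq2 gave an adjusted p to only 1 gene each of the tuft cell, enteric neuron and glia, and ileal lists, and to 2 of the myeloid list.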
